A study of Mus musculus with 12 samples.

Results

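The CC and CXC chemokine ligands are described here across wild-type and Iqgap2-/- mouse livers. Members were chosen by name: a gene entered if its symbol began with Ccl or Cxcl followed directly by a digit and if a probe set named that gene alone. The rule gave 31 genes from 46 probe sets, of 18194 genes that could be tested. Each gene was represented by the probe set with the highest mean over the 12 arrays. Ccl19, Ccl21 and Ccl27b were left out because the 4 probe sets that name them also name other genes.

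Liver RNA was measured in male mice of the 129J background on a regular diet, with 3 mice and 3 arrays in each of 4 groups. The groups were wild-type (WT) and IQGAP2 knockout (KO) normal liver at 6 months, WT normal liver at 24 months, and hepatocellular carcinoma (HCC) tissue from KO mice at 24 months (KO 24 months tumor). IQGAP2 is a scaffold protein abundant in hepatocytes, and the labels name no Cre or tissue-restricted promoter for the knockout. The design asks how the liver transcriptome differed by genotype at each age and by age in each genotype. Normal liver of KO mice at 24 months was not analysed here, so age and tumor tissue cannot be told apart in the KO groups.

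Chemokines are small secreted proteins that bind to G protein-coupled receptors on leukocytes and direct their movement into tissue. CC and CXC ligands are told apart by the spacing of their first cysteines. In the liver they are made by Kupffer cells, the resident macrophages, and by endothelial cells, stellate cells and hepatocytes, and many are induced by inflammatory cytokines, through NF-kB, or by interferons.

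The targeted gene went against the labels of a pair of groups. Iqgap2 had a mean log2 intensity of 8.32 in the arrays labelled WT 6 months, as low as the 8.29 of KO 6 months. It was 12.17 in WT 24 months and 12.12 in those labelled KO 24 months tumor. The latter are called the tumor arrays below after that label alone, which Iqgap2 goes against. Afp, a fetal liver protein often made again by liver tumors, stood at 12.79 in the arrays labelled WT 6 months and at 6.21 in those labelled KO 24 months tumor. Group names below are those of the labels throughout, and every direction is between arrays so labelled. Were the labels of these 2 groups exchanged, the same pairs of arrays would be compared under other names, and the interaction would keep its size and sign. The 9 hepatocyte markers measured were above the array median in all groups. Another array stood apart within its group: over all genes, WT 24 months replicate 3 correlated at 0.972 with each of the other arrays of its group, which correlated at 0.986 with each other, and its array quality weight of 0.396 was the lowest of the 12.

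In these arrays 19 of the 31 ligands lay above the array median of log2 intensity in at least 1 group, which is 61.3% against 66.9% of all genes. Of them 16 were above it in every group, and Cxcl14, Ccl8 and Ccl2 only in the groups labelled WT. The 12 ligands below it in every group were Ccl1, Ccl3, Ccl7, Ccl11, Ccl12, Ccl17, Ccl20, Ccl22, Cxcl2, Cxcl3, Cxcl5 and Cxcl15. Values of these 12 ranged from 3.24 to 6.13 over all arrays, the highest being Ccl12 in WT 24 months replicate 3.

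**Figure D1:**
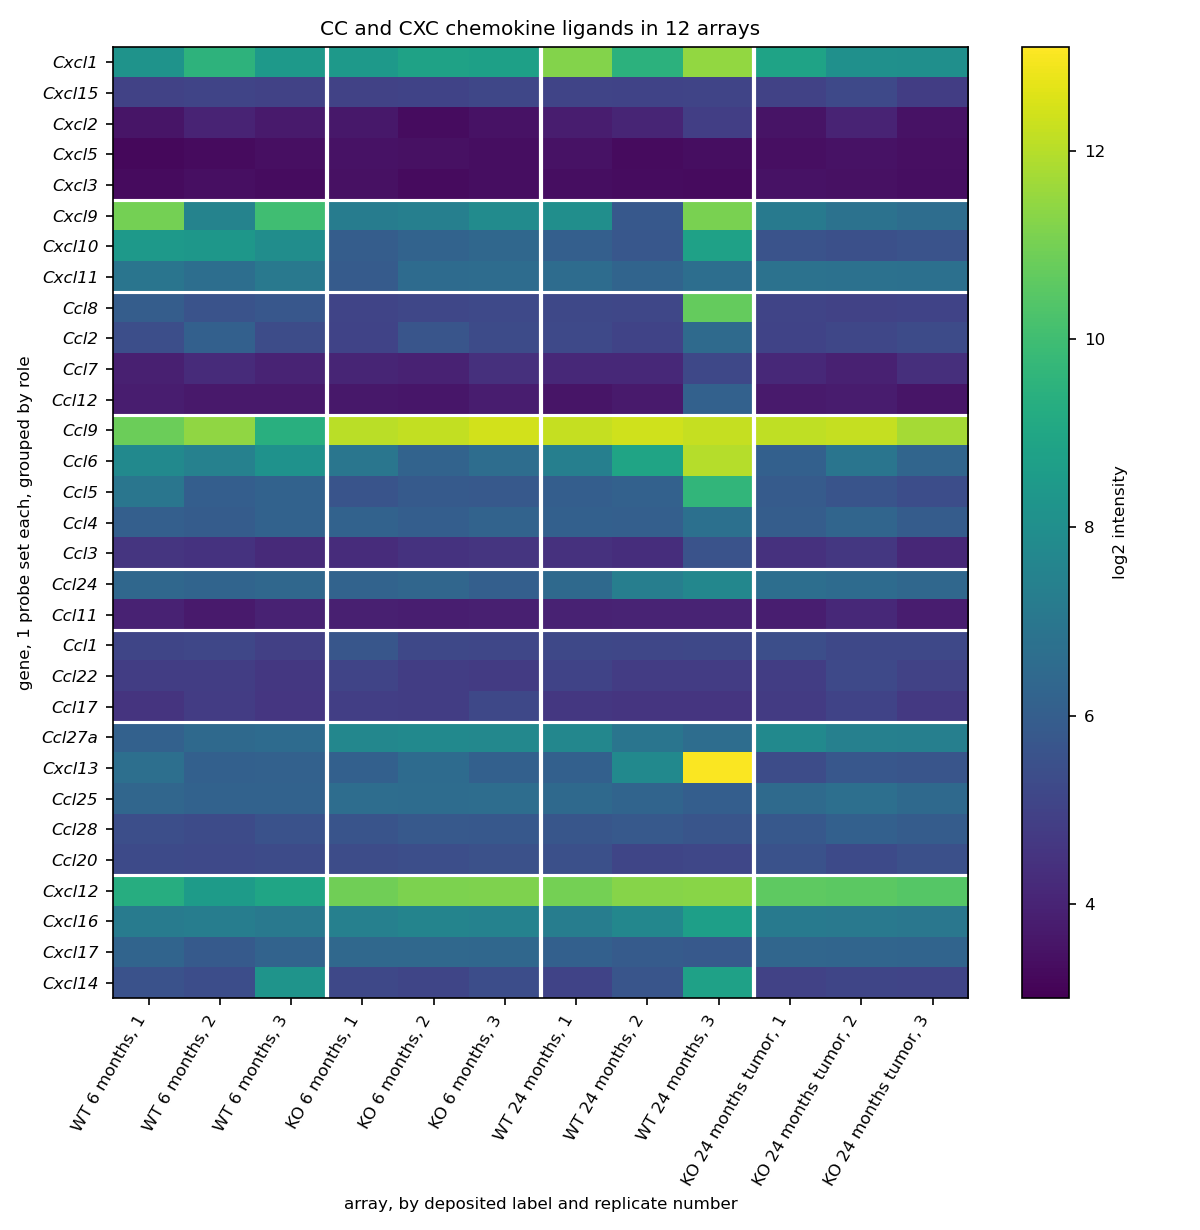
Log2 intensity of the 31 chemokine ligands (rows, grouped by role) in each of the 12 arrays (columns, by labelled group and replicate number); colour gives the value on the scale at the right. Cxcl12 was 8.55 to 9.29 in the arrays labelled WT 6 months and at least 10.44 in all others, and WT 24 months replicate 3 carried the highest value of 17 ligands.

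A ligand was called when its adjusted p was 0.05 or less in limma, with no minimum fold. In KO 6 months against WT 6 months, 5 ligands were called, beside 17% of all genes. Cxcl12, Ccl9, Ccl27a and Ccl25 rose, beside 9% of all genes, and Cxcl10 fell, beside 8.04%. WT 24 months against WT 6 months gave 4, beside 13.3% of all genes. Cxcl12, Cxcl1, Ccl9 and Ccl24 were higher at 24 months, beside 6.22% of all genes, and none was lower, beside 7.07%. These comparisons share the arrays labelled WT 6 months. No ligand was called in KO 24 months tumor against WT 24 months, beside 0.572% of all genes (0.341% higher and 0.231% lower). Yet 11 (35.5%, beside 17.1% of all genes) had an unadjusted p under 0.05. Of these 9 were lower (29%, beside 6.67% of all genes) and 2 higher (6.45%, beside 10.5%). SAM called 2, Cxcl1 and Cxcl12, as lower in the tumor arrays, beside 2.14% of all genes. None was called by limma in KO 24 months tumor against KO 6 months, beside 0.033% of all genes, with 2 at an unadjusted p under 0.05, beside 6.03% of all genes. SAM called none there either, and its share of all genes is not given here. The F test over the 4 groups called 6, beside 18.2% of all genes: Cxcl12, Ccl27a, Cxcl1, Ccl9, Cxcl10 and Ccl28. As a share, the ligands called by limma in either direction lay near the background of all genes in the comparisons that called any.

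Median log2 differences of the 31 ligands were 0.02 in KO 6 months against WT 6 months, where the median of all genes was 0.05, and 0.23 in WT 24 months against WT 6 months, where it was 0.01. The ligands had a median of -0.36 in KO 24 months tumor against WT 24 months, beside 0.04 for all genes, and 20 of 31 were lower in the tumor arrays. In KO 24 months tumor against KO 6 months the median was -0.07 beside 0.00. Without WT 24 months replicate 3, the median was -0.01 in KO 24 months tumor against WT 24 months (17 of 31 lower) and 0.07 in WT 24 months against WT 6 months, beside 0.03 for all genes in both. The larger shifts of these medians thus rested on that array. Single ligands varied in this: in KO 24 months tumor against WT 24 months, Cxcl1 was -2.40 with it and -2.03 without. Cxcl13 was -3.40 with it and -1.37 without.

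**Figure D2:**
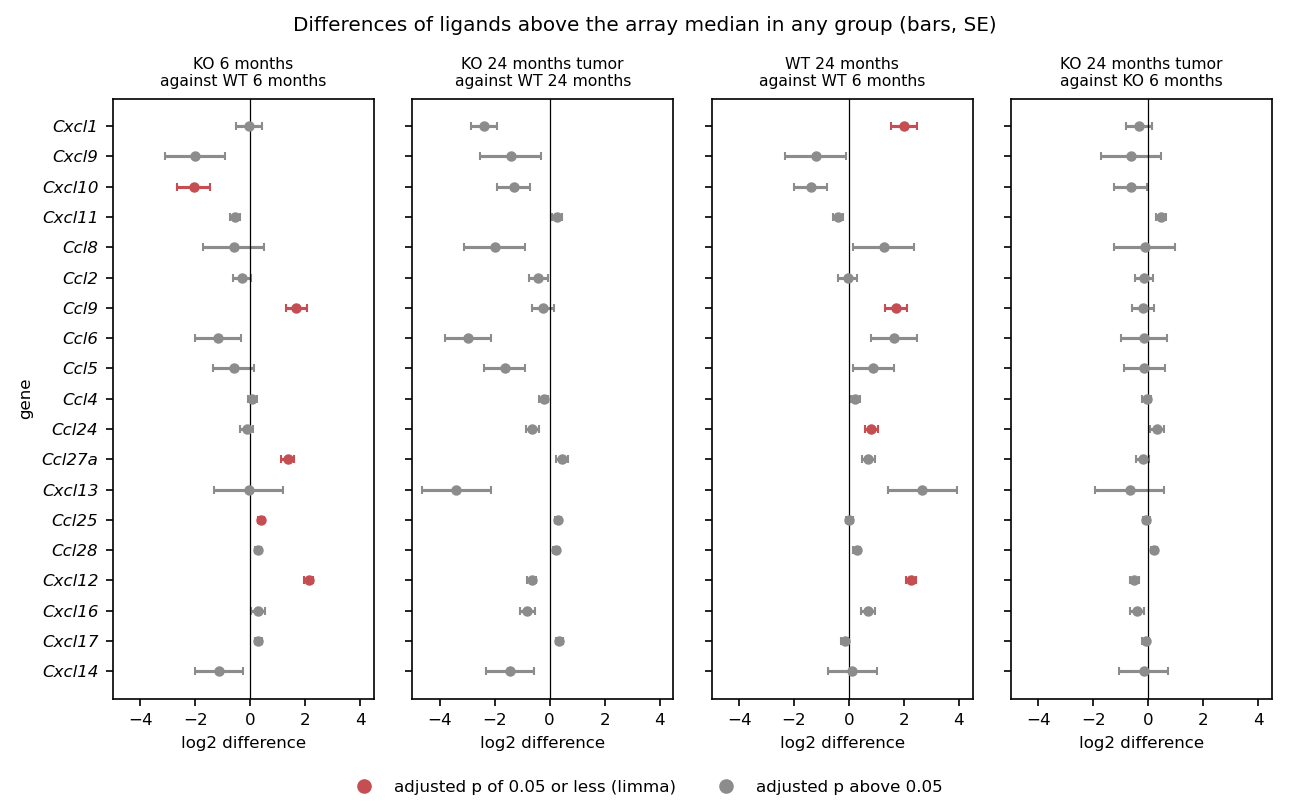
Log2 differences between labelled groups (x axis) for the 19 ligands above the array median in any group (y axis), with bars of 1 standard error from limma; red points have an adjusted p of 0.05 or less. Cxcl12 stood at 2.12 and 2.26 in the comparisons with WT 6 months, and no point was red in the comparisons of KO 24 months tumor.

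To show the sequence before the start of the ligands the results turn on, the 250 bases upstream of 4 genes are printed from RefSeq (build GRCm38.p6), 5′ to 3′ on the strand of the gene. Cxcl12 and Cxcl1 carried the largest called rises, Cxcl10 the called fall, and Cxcl13 the largest excess in WT 24 months replicate 3. Capitals mark matches to 3 motifs searched on both strands: an NF-kB type (GGG and TTCC with 3 letters between), an interferon response type (GAAA and GAAA with 2 between) and a STAT type (TTC and GAA with 3 between, its own reverse complement). The regions are chr5:90890995-90891244 (plus strand) for Cxcl1, chr5:92348890-92349139 (minus strand) for Cxcl10, chr6:117168285-117168534 (plus strand) for Cxcl12 and chr5:95956689-95956938 (plus strand) for Cxcl13.
Cxcl1: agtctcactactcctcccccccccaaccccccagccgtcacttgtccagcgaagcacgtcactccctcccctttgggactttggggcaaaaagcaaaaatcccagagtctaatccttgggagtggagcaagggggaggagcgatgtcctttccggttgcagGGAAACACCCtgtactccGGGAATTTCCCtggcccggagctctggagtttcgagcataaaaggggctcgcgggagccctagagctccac
Cxcl10: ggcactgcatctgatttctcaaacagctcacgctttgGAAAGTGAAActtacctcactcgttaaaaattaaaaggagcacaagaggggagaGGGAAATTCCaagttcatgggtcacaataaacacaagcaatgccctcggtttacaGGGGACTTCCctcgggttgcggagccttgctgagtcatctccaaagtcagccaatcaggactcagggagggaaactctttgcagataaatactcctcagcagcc
Cxcl12: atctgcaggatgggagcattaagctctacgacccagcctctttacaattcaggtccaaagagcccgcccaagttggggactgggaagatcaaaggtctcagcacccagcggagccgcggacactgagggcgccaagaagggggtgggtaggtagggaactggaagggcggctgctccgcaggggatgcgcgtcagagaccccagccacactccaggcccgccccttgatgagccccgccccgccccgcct
Cxcl13: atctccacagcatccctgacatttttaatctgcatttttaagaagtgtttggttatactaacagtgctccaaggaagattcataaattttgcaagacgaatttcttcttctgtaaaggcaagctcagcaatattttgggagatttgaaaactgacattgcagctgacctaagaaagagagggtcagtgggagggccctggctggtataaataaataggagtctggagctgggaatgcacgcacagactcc

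Of the 31 ligands, 21 had at least 1 entry in the promoter table, with 24 regions in all. The NF-kB type motif was in 7 of these 24 regions (Ccl1, Ccl20, Ccl9, Cxcl1, Cxcl10, Cxcl2 and Cxcl3) and in 4.65% of all 32851 regions of this length. Cxcl1 held 3 matches, of which a pair overlapped on opposite strands, and Cxcl10 held 2. The interferon response type was in Cxcl10 and Cxcl14 and in 2.98% of all regions, and the STAT type in Ccl17 and Cxcl14 and in 7.02%. No such letters occurred in the windows of Cxcl12 and Cxcl13. Along the genome, the 30 ligands that could be placed (all but Cxcl11) formed runs in which neighbours lay within 5 protein-coding genes of each other: Ccl2, Ccl7, Ccl11, Ccl12, Ccl8 and Ccl1 in a run of 6, Ccl5, Ccl9, Ccl6, Ccl3 and Ccl4 in a run of 5, Cxcl5, Cxcl3, Cxcl15, Cxcl1 and Cxcl2 in another of 5, and the pairs Cxcl9 with Cxcl10 and Ccl22 with Ccl17. Members of a run did not share a call: Ccl9 was called and its neighbour Ccl6 was not, and Cxcl1 was called while the other ligands of its run were below the array median.

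Cxcl12, a ligand made broadly in tissue, was lowest in the arrays labelled WT 6 months. CXCL12, also named SDF-1, binds CXCR4 and retains and attracts hematopoietic cells and lymphocytes. Its log2 intensities were 9.29, 8.55 and 8.94 in WT 6 months, 10.90, 11.11 and 11.13 in KO 6 months, 10.99, 11.25 and 11.30 in WT 24 months, and 10.59, 10.56 and 10.44 in the tumor arrays. All 3 arrays labelled WT 6 months lay below the other 9, and the tumor arrays lay between them and the KO 6 months and WT 24 months arrays, without overlap. Cxcl12 was 4.36-fold higher in KO 6 months than in WT 6 months (log2 difference 2.12, SE 0.17, adjusted p = 1.10e-05) and 4.78-fold higher in WT 24 months than in WT 6 months (2.26, SE 0.17, adjusted p = 8.97e-06). The difference of -0.65 between KO 24 months tumor and WT 24 months missed the threshold (adjusted p = 0.104), as did that of -0.52 between KO 24 months tumor and KO 6 months (adjusted p = 0.654).

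The age difference of Cxcl12 was not the same in the labelled genotypes. With 24 against 6 months at -0.52 in KO and 2.26 in WT, the interaction was -2.77 on the log2 scale (SE 0.23, adjusted p = 7.51e-05), and Cxcl12 was the only ligand called, beside 4.83% of all genes (2.24% lower and 2.59% higher). The interaction of 5 other ligands had an unadjusted p under 0.05, which with Cxcl12 is 19.4% of the ligands beside 17.7% of all genes. Among them were Cxcl1 at -2.34 (adjusted p = 0.0777) and Ccl9 at -1.92 (adjusted p = 0.0743). A second probe set of Cxcl12 was called in the same directions, with log2 differences of 1.59 in KO 6 months and 1.72 in WT 24 months against WT 6 months. The third, with differences of 0.05 and -0.03, was not.

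Markers of the cells that line the sinusoids moved with Cxcl12 in the comparisons with WT 6 months and in the interaction. Of 12 sinusoidal endothelial markers 10 rose in KO 6 months against WT 6 months, beside 9% of all genes. In WT 24 months against WT 6 months 11 rose, beside 6.22%. The medians of the 12 were 1.63 and 1.49 on the log2 scale, and 8 were called lower in the interaction, beside 2.24%. In KO 24 months tumor against WT 24 months and against KO 6 months, the medians were 0.03 and -0.07, where Cxcl12 was -0.65 and -0.52. Their summed linear intensity was 1540 to 2370 in the arrays labelled WT 6 months, 5320 to 5830 in KO 6 months, 4100 to 7450 in WT 24 months and 5180 to 5760 in KO 24 months tumor. The markers with the smallest F-test p were Clec4g, Dnase1l3, Kdr and Stab1, which rose by 2.42, 2.20, 1.83 and 0.96 in KO 6 months against WT 6 months. Stellate cell and fibroblast markers also rose, 8 of 13 in both comparisons with WT 6 months. They were led by Dcn, Rgs5, Colec11 and Reln with 2.36 to 2.97 in KO 6 months against WT 6 months. The summed intensity of the 13 was 1620 to 3450 in WT 6 months against 7370 to 12400 in all other arrays. Fewer cells of a type and less RNA per cell cannot be told apart in whole tissue, and the part of these cells in the Cxcl12 result was not tested.

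Of the other tissue ligands, Cxcl16, a membrane-bound ligand of CXCR6 that sinusoidal endothelium displays to lymphocytes, had means of 7.19 ± 0.09 (SD, n = 3) in WT 6 months, 7.48 ± 0.09 in KO 6 months, 7.89 ± 0.73 in WT 24 months and 7.07 ± 0.05 in the tumor arrays. It was called in no comparison, and the adjusted p was 0.116 in WT 24 months against WT 6 months (0.70) and 0.171 in KO 24 months tumor against WT 24 months (-0.81). Cxcl17 stayed between 5.82 and 6.43 in all arrays. Cxcl14 was 8.22 in WT 6 months replicate 3, 8.77 in WT 24 months replicate 3 and 4.99 to 5.68 in the other 10 arrays.

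The neutrophil attractants act mostly through CXCR2, and of their 5 members Cxcl1 was the only one above the array median. Log2 intensities of Cxcl1 were 8.17, 9.53 and 8.48 in WT 6 months, 8.44, 8.83 and 8.75 in KO 6 months, 11.23, 9.49 and 11.45 in WT 24 months, and 8.87, 8.09 and 8.03 in the tumor arrays. WT 24 months replicates 1 and 3 were the highest of all, and replicate 2 lay just under the top array of WT 6 months, so these groups overlapped. Cxcl1 was 3.99-fold higher in WT 24 months than in WT 6 months (log2 2.00, SE 0.48, adjusted p = 0.0178), and 5.26-fold lower in KO 24 months tumor than in WT 24 months with an adjusted p of 0.0562. Without WT 6 months replicate 1 or 3 or WT 24 months replicate 1, the difference from WT 6 months had an adjusted p of 0.0561 to 0.0695. Against WT 24 months all tumor arrays lay lower, without overlap. The other Cxcl1 probe sets gave 2.22 (adjusted p = 0.0329) and 0.82 (adjusted p = 0.0531) for WT 24 months against WT 6 months. None of the 8 neutrophil markers measured was called in any comparison. Their summed intensity was highest in WT 24 months replicate 3, at 3150, and was 536 and 743 in replicates 1 and 2 of that group. It was 2690, 369 and 567 in WT 6 months, and 299 to 459 in the arrays of KO 6 months and KO 24 months tumor. The part of neutrophils in the values of Cxcl1 was not tested.

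The interferon-induced ligands of CXCR3, which draw in activated T cells, were led by Cxcl10. Its log2 intensities were 8.48, 8.33 and 7.94 in WT 6 months, 5.97, 6.21 and 6.38 in KO 6 months, 6.05, 5.72 and 8.78 in WT 24 months, and 5.58, 5.46 and 5.60 in the tumor arrays. High values were those of all WT 6 months arrays and of replicate 3 of WT 24 months, and the other 8 arrays lay at least 1 log2 unit lower. Cxcl10 was 4.18-fold lower in KO 6 months than in WT 6 months (log2 -2.06, SE 0.59, adjusted p = 0.0343). This call was lost when any of the 9 arrays outside WT 24 months was left out, with adjusted p of 0.0505 to 0.098. WT 24 months differed from WT 6 months by -1.40 (adjusted p = 0.161), and by -2.36 (adjusted p = 9.14e-06) with WT 24 months replicate 3 left out.

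Cxcl9, a ligand of the same receptor, varied more between arrays of a group: 10.97, 7.53 and 10.01 in WT 6 months, 7.25, 7.37 and 7.86 in KO 6 months, 8.01, 5.79 and 11.07 in WT 24 months, and 7.17, 6.82 and 6.61 in the tumor arrays. Its difference of -2.01 in KO 6 months against WT 6 months was close in size to that of Cxcl10 and was not called (SE 1.11, adjusted p = 0.252). Cxcl11 had means of 6.89 ± 0.23 (SD, n = 3) in WT 6 months and 6.32 ± 0.38 in KO 6 months, a difference of -0.57 (adjusted p = 0.0573). A second Cxcl11 probe set gave -0.49 in that comparison, with an adjusted p of 0.0326 when every probe set was tested. Icam1, an adhesion molecule of activated endothelium that is induced by the same cytokines, was also lower in KO 6 months than in WT 6 months, by 2.00 on the log2 scale (adjusted p = 0.00608).

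**Figure D3:**
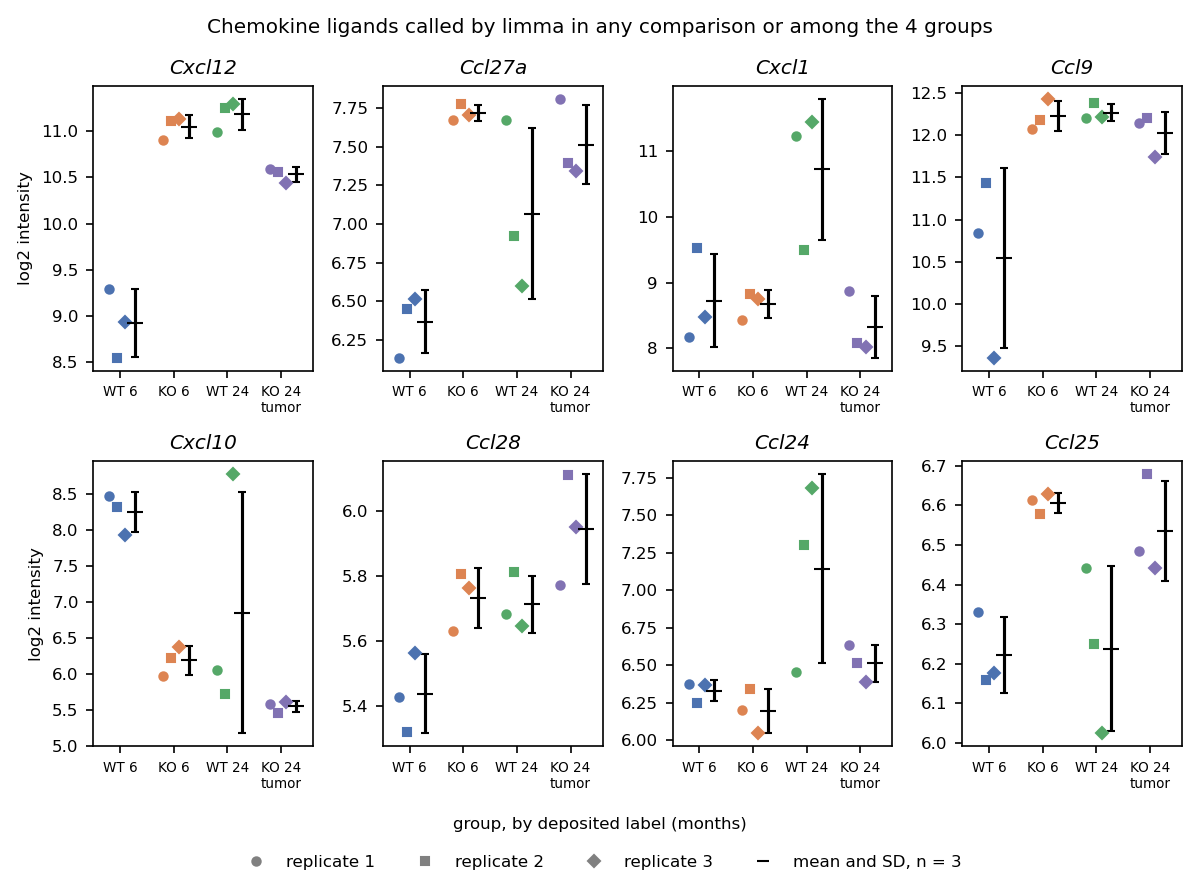
Log2 intensity (y axis) in each array of the 8 ligands called in any comparison or by the F test, by labelled group (x axis); points are single arrays and bars are the mean and SD of 3. Cxcl12, Cxcl10, Ccl9, Ccl27a, Ccl25 and Ccl28 separate the arrays labelled WT 6 months from KO 6 months. WT 24 months replicate 3 lies far above its group in Cxcl10.

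Of the macrophage inflammatory type, whose receptors include CCR1, Ccl9 was called. CCL9 is made by myeloid cells and attracts cells that carry CCR1. Log2 intensities of Ccl9 were 10.84, 11.44 and 9.37 in WT 6 months, 12.07, 12.18 and 12.43 in KO 6 months, 12.20, 12.38 and 12.22 in WT 24 months, and 12.14, 12.20 and 11.74 in the tumor arrays. The arrays labelled WT 6 months were the lowest 3 and spread over more than 2 log2 units, while the other 9 lay within 1. Ccl9 was 3.20-fold higher in KO 6 months (log2 1.68, SE 0.39, adjusted p = 0.0126) and 3.29-fold higher in WT 24 months (1.72, SE 0.39, adjusted p = 0.0132) than in WT 6 months. Its second probe set gave 1.84 and 1.66, both called. Without KO 6 months replicate 3 the adjusted p in KO 6 months against WT 6 months was 0.0509.

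Ccl6, which lies beside Ccl9 on the genome, had another pattern. It was 7.80, 7.42 and 8.14 in WT 6 months, 6.95, 6.22 and 6.61 in KO 6 months, 7.37, 8.90 and 11.96 in WT 24 months, and 6.11, 6.95 and 6.28 in the tumor arrays. KO 6 months lay below WT 6 months without overlap (-1.19, adjusted p = 0.379), and without WT 24 months replicate 3 in the fit the same difference had an SE of 0.36 and an adjusted p of 0.0392. KO 24 months tumor differed from WT 24 months by -2.97 (adjusted p = 0.129), and by -1.69 (adjusted p = 0.109) without WT 24 months replicate 3. Ccl5 and Ccl4, attractants of T cells and macrophages, were called nowhere. Ccl5 was 9.64 in WT 24 months replicate 3 and 5.37 to 6.95 in the other arrays, and Ccl4 was 6.72 there and 5.93 to 6.31 elsewhere.

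The monocyte chemoattractants, ligands of CCR2 and related receptors, were dim in most arrays and none was called. Ccl8 was 5.97, 5.60 and 5.72 in WT 6 months, 5.08, 5.15 and 5.24 in KO 6 months, 5.17, 5.17 and 10.73 in WT 24 months, and 5.05, 4.98 and 5.03 in the tumor arrays. The arrays labelled WT 6 months lay above those of KO 6 months by 0.61 on the log2 scale, with an adjusted p of 0.764, and of 0.00219 without WT 24 months replicate 3. Ccl2 had means of 5.62 ± 0.41 (SD, n = 3) in WT 6 months, 5.33 ± 0.31 in KO 6 months, 5.57 ± 0.79 in WT 24 months and 5.16 ± 0.13 in the tumor arrays.

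Ccl24, an eotaxin that attracts eosinophils through CCR3, was 6.37, 6.25 and 6.37 in WT 6 months, 6.20, 6.34 and 6.05 in KO 6 months, 6.45, 7.30 and 7.68 in WT 24 months, and 6.64, 6.51 and 6.39 in the tumor arrays. WT 24 months replicate 1 stood near the other groups, and replicates 2 and 3 stood above all other arrays. Ccl24 was 1.76-fold higher in WT 24 months than in WT 6 months (log2 0.81, SE 0.24, adjusted p = 0.0447), which became 0.55 with an adjusted p of 0.107 without WT 24 months replicate 3. Leaving out any of the other arrays except WT 24 months replicate 1 also ended this call, with adjusted p of 0.0614 to 0.118.

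Of the ligands of lymphoid and mucosal homing, Ccl27a, Ccl25 and Ccl28 were called. Ccl27a, a skin-homing ligand of CCR10, was 6.13, 6.45 and 6.51 in WT 6 months, 7.67, 7.78 and 7.71 in KO 6 months, 7.68, 6.92 and 6.60 in WT 24 months, and 7.81, 7.39 and 7.34 in the tumor arrays. The arrays labelled WT 6 months were the lowest 3, with WT 24 months replicate 3 just above them. Ccl27a was 2.56-fold higher in KO 6 months than in WT 6 months (log2 1.36, SE 0.23, adjusted p = 0.00234). Ccl27a has near-identical copies in the genome, and both probe sets shared with Ccl27b had their lowest mean in WT 6 months, 7.55 and 7.17 against 8.52 and 8.43 in KO 6 months. Its signal may therefore hold that of the copies.

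Ccl25, a ligand of CCR9 that guides T cells to the thymus and gut, was 6.33, 6.16 and 6.18 in WT 6 months, 6.61, 6.58 and 6.63 in KO 6 months, 6.44, 6.25 and 6.02 in WT 24 months, and 6.48, 6.68 and 6.44 in the tumor arrays. KO 6 months lay above WT 6 months without overlap, by 1.31-fold (log2 0.38, SE 0.12, adjusted p = 0.0421). A second Ccl25 probe set gave 0.10, and the call was lost when any of 8 arrays was left out. Ccl28, a mucosal ligand of CCR10, was 5.43, 5.32 and 5.56 in WT 6 months, 5.63, 5.81 and 5.76 in KO 6 months, 5.68, 5.81 and 5.65 in WT 24 months, and 5.77, 6.11 and 5.95 in the tumor arrays. It was lowest in WT 6 months and was called by the F test (adjusted p = 0.0395) but in no comparison of a pair of groups, and its other probe sets gave differences of -0.07 and 0.05 in KO 6 months against WT 6 months.

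Cxcl13, which attracts B cells through CXCR5, spread most of all ligands within a group. It was 6.70, 6.09 and 6.13 in WT 6 months, 6.11, 6.55 and 6.08 in KO 6 months, 6.09, 7.80 and 13.04 in WT 24 months, and 5.35, 5.74 and 5.64 in the tumor arrays. The WT 24 months mean of 8.97 ± 3.63 (SD, n = 3) was thus set by replicate 3. All tumor arrays lay below all others, and KO 24 months tumor against WT 24 months gave -3.40 (SE 1.26, adjusted p = 0.212), and -1.37 (adjusted p = 0.172) without that replicate.

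WT 24 months replicate 3 held the highest value of 17 of the 31 ligands, beside 10.8% of all genes, and 15 ligands were over 2-fold above the median of the other 11 arrays there, beside 4.6% of all genes. Cxcl13 was 124-fold above that median, Ccl8 47.3-fold, Ccl6 32.2-fold, Ccl5 13.5-fold and Cxcl14 11.9-fold. In no other array were more than 4 ligands over 2-fold above the median of the rest. Ccl27a, Cxcl17 and Ccl25 stood below the median of the other arrays in it, by 0.80, 0.43 and 0.42 on the log2 scale.

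**Figure D4:**
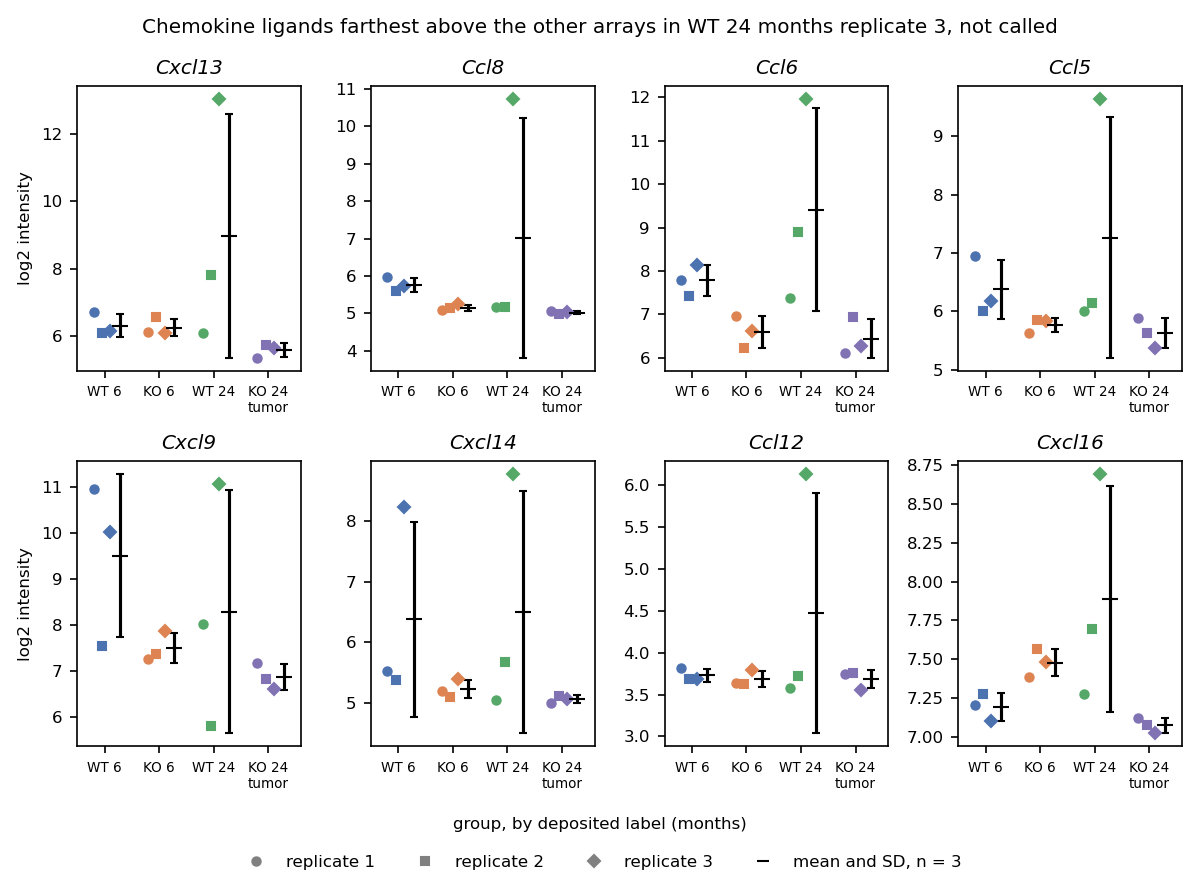
Log2 intensity (y axis) by labelled group (x axis) of 8 ligands that were not called and that stood farthest above the other arrays in WT 24 months replicate 3 (green diamond); bars are the mean and SD of 3 arrays. Cxcl13 was 13.04 in it against at most 7.80 in the other 11 arrays.

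Markers of leukocytes were high in the same array. The 12 Kupffer cell and macrophage markers summed to 51000 there against 2660 to 8400 in the other 11 arrays, and all 12 were highest in it. Monocyte and recruited macrophage markers summed to 11900 against 702 to 1780, and T and NK cell markers to 1000 against 430 to 520. The dendritic cell list summed to 16500 against 675 to 2330, which came from Cd74 and H2-Ab1, antigen presentation genes of several cell types. B and plasma cell markers were not raised in it alone, at 457 beside 566 and 487 in the other WT 24 months arrays. Between groups, few markers of these cells were called, but the spread that this array adds enters every comparison. The Kupffer cell and macrophage markers had a median log2 difference of -2.00 in KO 24 months tumor against WT 24 months. It was 0.99 in WT 24 months against WT 6 months, -0.34 in KO 6 months against WT 6 months and -0.57 in KO 24 months tumor against KO 6 months. Clec4f, a Kupffer cell lectin, rose by 2.37 in WT 24 months against WT 6 months (adjusted p = 0.0259), and none of the monocyte or dendritic markers was called. In KO 6 months against WT 6 months, Prf1 (perforin) rose by 0.41 and Cd79a, a B cell receptor chain, by 0.51. Jchain, made by plasma cells, rose by 1.19 in WT 24 months against WT 6 months and was lower by 1.77 in the tumor arrays than in WT 24 months. Of epithelial markers, Krt7 of 5 biliary genes and Apob, Tat and Serpina1c of 9 hepatocyte genes were called in KO 6 months against WT 6 months, at 0.49, -1.04, 1.36 and 0.71. The part of these cells in the ligands' values was not tested.

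**Figure D5:**
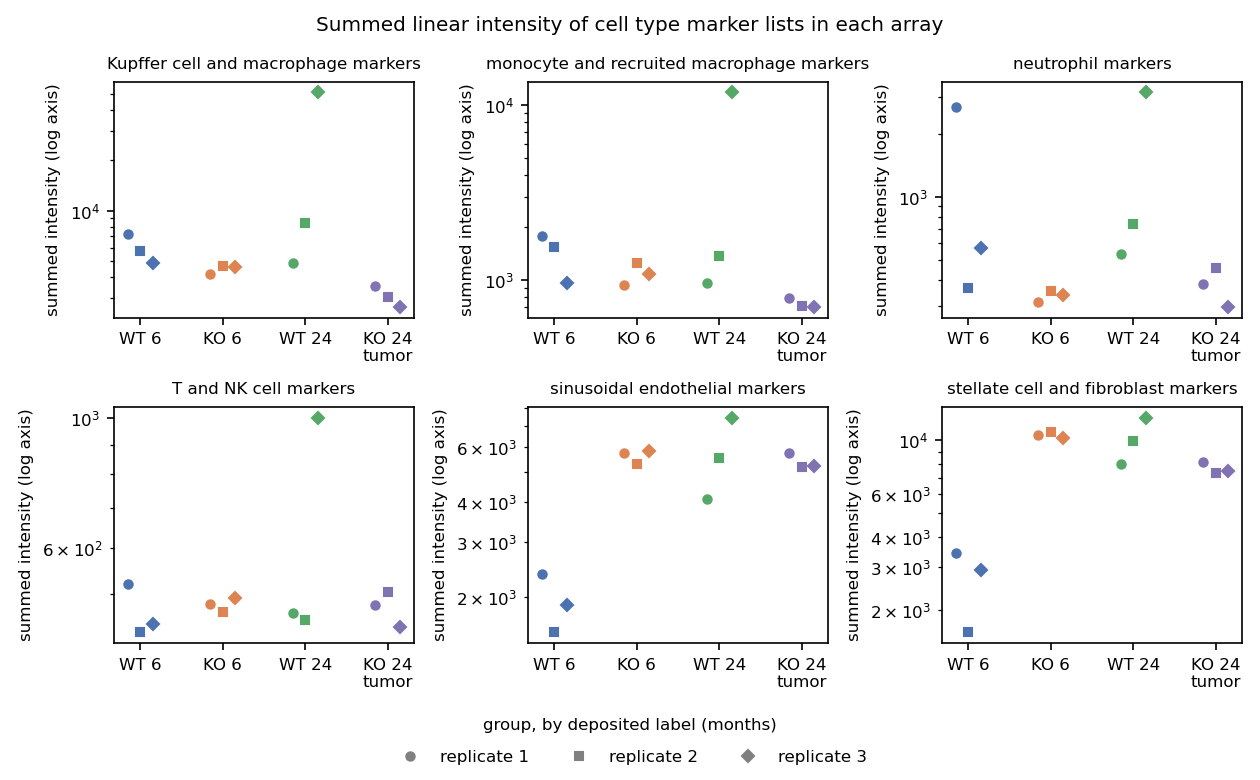
Summed linear intensity (y axis, log scale) of 6 lists of cell type markers in each array, by labelled group (x axis). WT 24 months replicate 3 reached 51000 for Kupffer cell and macrophage markers, and the arrays labelled WT 6 months were the lowest for sinusoidal endothelial and stellate cell markers.

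Without WT 24 months replicate 3, WT 24 months against WT 6 months called 6 ligands, beside 14% of all genes: Cxcl12 (2.20, adjusted p = 2.33e-05), Cxcl1 (1.63, 0.0464), Ccl9 (1.74, 0.0223) and Ccl27a (0.94, 0.0135) higher, and Cxcl10 (-2.36, 9.14e-06) and Ccl8 (-0.59, 0.00668) lower. KO 6 months against WT 6 months then called 8, beside 20.2% of all genes, the earlier 5 and Ccl6, Ccl8 and Cxcl11 as lower. KO 24 months tumor against WT 24 months called none without replicate 3, beside 0.599% of all genes, but 7 without replicate 1, beside 4.56%, when replicates 2 and 3 alone stood for the group: Ccl24, Ccl6, Cxcl1, Cxcl12, Cxcl13 and Cxcl16 as lower and Ccl27a as higher in the tumor arrays.

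The receptors of these ligands were mostly dim. Of 21 chemokine receptors measured, 14 or 15 lay below the array median in each group, and Ackr1, an atypical receptor on venular endothelium and red cells that binds many chemokines, was the only one called. Ackr1 was 5.35, 5.12 and 5.77 in WT 6 months and 6.25 to 6.35 in KO 6 months, a difference of 0.89 (adjusted p = 0.0314), and WT 24 months was higher than WT 6 months by 0.86 (adjusted p = 0.0433). Cxcr4 and Cxcr2, the receptors of CXCL12 and CXCL1, had means below the array median in every group, though Cxcr4 was 6.65 in WT 24 months replicate 3. The 21 receptors summed to 1130 in that array against 719 to 851 in the others. In it 10 of the 21 had their highest value, beside 10.8% of all genes. Of the 4 chemokines outside the symbol rule (Cx3cl1, Xcl1, Pf4 and Ppbp) none was called, and Pf4, a platelet and macrophage CXC chemokine, was 10.51 in WT 24 months replicate 3 and at most 7.15 elsewhere.

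Among 19 inducing cytokines and NF-kB or STAT factors, 3 were called in a comparison. Irf7, a driver of type I interferon responses, rose by 2.17 in WT 24 months against WT 6 months (adjusted p = 0.00578) and was lower by 2.74 in KO 24 months tumor than in WT 24 months (adjusted p = 0.0253). Socs3, a STAT3-induced brake on cytokine signals, fell by 1.76 in KO 6 months against WT 6 months (adjusted p = 0.00138), and Il1a rose by 0.66 in WT 24 months against WT 6 months (adjusted p = 0.0464). Of 11 proteins that cut or bind chemokines, Sdc1, a heparan sulfate proteoglycan, rose by 0.82 in KO 6 months and by 0.89 in WT 24 months against WT 6 months (adjusted p = 6.59e-04 and 4.35e-04), Mmp2 rose by 0.83 and Mmp12 fell by 1.05 in KO 6 months against WT 6 months. Of 7 endothelial adhesion molecules Icam1 alone was called.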

How the data were processed

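RNA from the livers of 12 male mice was hybridised to Affymetrix Mouse Genome 430 2.0 arrays, 1 array per mouse and 3 per group. According to the methods and the labels, the authors deposited log2 intensities after RMA in the Simpleaffy package (version not given in the sources used here), which corrects background, gives all arrays the same distribution and summarises the probes of each set. These steps leave no detection call, so a dim probe set cannot be told from an absent transcript, and a shift shared by all genes is removed. No other scaling was found: all 45101 probe sets had a value on every array, and the array medians lay between 5.41 and 5.45.

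The supplied platform annotation gave the genes of each probe set: 34958 name 1 gene, 932 name several and 9211 name none listed. Where a gene had several, the one brightest on average was kept, which gave 18194 genes. A linear model of the 4 group means was fitted to all of them with limma 3.58.1 in R 4.3.3, and Benjamini-Hochberg adjustment ran over all of them. A gene was called at an adjusted p of 0.05 or less with no minimum fold; the interaction and the F test over the 4 groups used the same threshold. Exact permutation of 3 against 3 arrays allows no p below 0.1, so none is given. The number of arrays limits the precision. Animals are the replicates: the labels call the arrays of a group biological replicates. The fit and the hand-written SAM test were tested on simulated data.

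The members, gene lists and tests were chosen with earlier results of these data known. Named with a value in every array are the members called in any comparison, the interaction or the F test; uncalled members above the array median are given by group, the others by their range. As exceptions made after their values were seen, Cxcl9, Ccl6, Ccl8 and Cxcl13 are also given in every array, Cxcl11 in 2 groups, and Cxcl14, Cxcl17, Ccl4 and Ccl5 by their range. Of the lists, called genes are named, up to 4 per list by the smallest F-test p. A few uncalled list genes, such as Cd79b, Cd74 and Cxcr4, are named besides. Alternatives were the fold of 3 that the methods state, SAM, only the compared groups in the fit, a block for the replicate number, probe sets averaged per gene, every probe set, only genes above the array median, centering on housekeeping genes or on the array median, a trended and robust prior, and each array left out. Array quality weights, and medians over the ligands without WT 24 months replicate 3, were added after seeing the data. Probe sets naming several genes were left out of the tests.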

Additional observations from a re-analysis of the deposited data

Results flagged for a closer look

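Cxcl12 drew attention because its age difference was not the same in the labelled genotypes. The difference between 24 and 6 months was -0.52 in KO and 2.26 in WT, and the difference of these differences was -2.77 on the log2 scale (SE 0.23, limma adjusted p = 7.51e-05). The 3 arrays labelled WT 6 months were the lowest for Cxcl12, and Iqgap2 goes against the label of these arrays. The interaction has the same size and sign if those 3 arrays and the 3 of KO 24 months tumor exchange labels.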

How the results depend on the processing

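Under all alternatives tried, 10 called differences of single ligands gave 228 values, of which 177 stayed called, 51 lost the call and 0 reversed. Of 586 values of 26 differences that were not called, 32 became called and 0 reversed. Cxcl12 was called in KO 6 months against WT 6 months, in WT 24 months against WT 6 months and in the interaction under every alternative run. In KO 6 months against WT 6 months, the 5 ligands called became 3 with a fold of 3, 10 with SAM and 3 with a trended and robust prior, and 2 to 8 when each array was left out: 2 without KO 6 months replicate 3, 3 without replicate 1 or 2 of that group, 3 without WT 6 months replicate 3, 3 without tumor array 1 or 3, and 8 without WT 24 months replicate 3. In KO 24 months tumor against WT 24 months, the 0 called became 2 with SAM, 1 with only genes above the array median and 1 after centering on housekeeping genes (Cxcl1 in both), and 0 to 7 when each array was left out, with 7 without WT 24 months replicate 1 and 1 without replicate 2 of that group. In WT 24 months against WT 6 months, the 4 called became 1 with SAM and 1 (Cxcl12) with only those groups in the fit, and 2 to 6 with an array left out, with 2 without WT 6 months replicate 1 or 3. The interaction gave 2 after centering on housekeeping genes and 1 to 4 with an array left out (4 without WT 24 months replicate 3, 3 without its replicate 1 or WT 6 months replicate 2, and 2 without its replicate 2 or WT 6 months replicate 3), and the F test gave 4 to 11, with 11 without WT 24 months replicate 1. KO 24 months tumor against KO 6 months stayed at 0. Centering on the 4 housekeeping genes measured moved all differences by -0.10 in KO 6 months against WT 6 months, by -0.15 in WT 24 months against WT 6 months and by 0.11 in the interaction; Ccl25 then missed the threshold (0.28, adjusted p = 0.487). The share of all genes called also moved with the setting and is not given beside these counts. They are therefore not results about the ligands as a set. The cause of these changes was not tested.

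Replicate numbers mark separate animals, and same-numbered arrays did not deviate together (correlations of -0.16 to 0.19 over 18 pairs of arrays). With the replicate number as a block, 4, 0, 3 and 0 ligands were called in the 4 comparisons, 1 in the interaction and 5 in the F test. Array quality weights, chosen after seeing the data, gave 6, 0, 4, 0, 1 and 7 in the same order. These counts too stand without the share of all genes called. The values hold no detection calls, so signal over background could not be assessed for dim ligands.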
